A study of Rattus norvegicus with 11 samples.

Results

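The genes described here encode subunits of the GABA-A receptor: the alpha subunit genes Gabra2, Gabra3 and Gabra5, the beta subunit genes Gabrb1 and Gabrb2, and the gamma subunit genes Gabrg1 and Gabrg3. They were chosen by symbol from the deposited table of dorsal root ganglion expression, and all 7 were present among its 16805 usable genes. The 11 sequenced libraries came from the ganglia of Sprague-Dawley rats. The sham-operated group (Sham, n = 4) gave ganglia of the right side. Those of the left side came from rats that underwent spinal nerve ligation alone (SNL, n = 4), a model of neuropathic pain in which a spinal nerve is tied off beyond the ganglion, and from rats that were ligated and received UNC0638 (group SNL plus UNC0638, n = 3), an inhibitor of the histone methyltransferases G9a and GLP. Side and ligation therefore cannot be told apart, and no group received UNC0638 without ligation. Not given in the sources used here are the dose, route and timing of UNC0638, the time after ligation, and the rats' sex and age. Nor do the labels say that replicates were separate animals, and the p-values therefore measure only how far these libraries spread, which may be technical.

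GABA-A receptors are chloride channels that open when they bind GABA, and each is a ring of subunits, most often of the alpha, beta and gamma classes. The subunits present set where the receptor sits, how fast it closes and which drugs it responds to; receptors with the alpha subunit of Gabra5 are known from extrasynaptic membrane in the brain. Sensory neurons keep a high internal chloride, so that GABA depolarises them, and GABA-A receptors on their central terminals take part in presynaptic inhibition in the spinal cord.

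Each deposited value is a read count per gene after a scaling of the library by the authors, called a scaled count here. Library totals were 9448055 to 11345375 scaled counts. The reads behind them, estimated from the step between low values, were 6126502 to 24362884. A gene was tested if it had a scaled count of at least 10 in at least 3 libraries (12081 genes), with limma on log2(value + 1) and a Benjamini-Hochberg adjusted p under 0.05 as the threshold. Fold values are ratios of group means, and log2 fold changes come from the fit. Of the 7 subunit genes 6 were tested; Gabrg3 was too low. Gabrb1 passed the filter only through ligated libraries, so that its entry into the test depended on its difference from Sham. It is left out of the counts of called genes below, and its p-values are from a fit of all genes without the filter. The shares of all 12081 tested genes set beside those counts still include genes that entered in this way. Sensory neuron genes were abundant in the tissue, with the sodium channel gene Scn10a at a mean of 11262 in Sham. SNL plus UNC0638 replicate 1 stood apart from its group: the summed level of 9 skeletal muscle genes was 75940 scaled counts there and 181 to 1980 in the other libraries. Of the Sham sums 1048 to 1789 came from Pvalb, which large-diameter sensory neurons also express, and of the sum in this library 1491. That of 10 nerve injury genes was 5049 in this library, against 13094 and 17055 in replicates 2 and 3, 34791 to 45875 in SNL and 4155 to 4770 in Sham. Differences of the tested subunit genes that involve this library are given below also without it, as are the counts over gene lists.

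Promoter windows of 300 bases (250 before and 50 after the start) were found by symbol for 6 of the 7 genes in a RefSeq table of build GRCr8, a later build than the rn4 used for the counts. The first entry of each symbol was taken, without a check for further starts of the same gene. Shown are the windows of Gabrb1, Gabrb2 and Gabra5, the 3 genes with the largest log2 fold changes after ligation among the 6 tested. Those of Gabrb1 and Gabrb2, beta subunit genes that moved in opposite directions, each hold GCGCATGCGC, the core of the binding motif of the transcription factor NRF1, here in capitals. The Gabrb1 window is chr14:36902844-36903143, minus strand, and the Gabrb2 window chr10:27439543-27439842, plus strand. The Gabra5 window is chr1:117516557-117516856, minus strand, and its capitals mark CpG dinucleotides, the sites of DNA methylation.
Gabrb1: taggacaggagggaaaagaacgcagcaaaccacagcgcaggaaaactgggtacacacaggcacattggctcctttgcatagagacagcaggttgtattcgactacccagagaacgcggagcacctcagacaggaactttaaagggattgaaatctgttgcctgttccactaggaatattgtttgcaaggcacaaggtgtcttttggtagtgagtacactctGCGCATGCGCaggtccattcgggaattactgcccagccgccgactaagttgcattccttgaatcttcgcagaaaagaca
Gabrb2: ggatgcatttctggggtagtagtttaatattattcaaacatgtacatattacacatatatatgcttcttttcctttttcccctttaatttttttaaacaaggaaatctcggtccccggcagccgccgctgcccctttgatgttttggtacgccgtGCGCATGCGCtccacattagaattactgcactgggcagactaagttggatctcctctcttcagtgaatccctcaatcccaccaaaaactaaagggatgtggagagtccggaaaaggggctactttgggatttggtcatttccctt
Gabra5: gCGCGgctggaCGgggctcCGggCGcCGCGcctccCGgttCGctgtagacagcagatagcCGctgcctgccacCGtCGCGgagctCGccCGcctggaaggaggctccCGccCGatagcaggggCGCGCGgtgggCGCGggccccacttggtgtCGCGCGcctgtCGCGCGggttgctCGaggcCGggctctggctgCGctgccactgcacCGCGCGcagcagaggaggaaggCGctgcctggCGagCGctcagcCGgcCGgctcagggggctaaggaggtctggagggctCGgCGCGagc

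The motif GCGCATGCGC reads the same on both strands and begins at position -29 of Gabrb1 and -95 of Gabrb2, counted from the start of the gene. It was present in 285 of 33469 windows of the same length (0.852%) and in none of the other 4 subunit windows. With 1 neighbouring base it forms the longest run shared by the Gabrb1 and Gabrb2 windows, TGCGCATGCGC. It is not their only shared run: after the motif both windows also hold gaattactgc and then gactaagttg. Neither TGANTCA (N any base), a broad form of the AP-1 motif, nor TGACGTCA, the cAMP response element, occurred in any of the 6 windows. They were present in 7.33% and 1.83% of all windows. Both letter strings read the same on both strands, and none of the 3 motifs overlaps another. The Gabra5 window held 42 CpG dinucleotides, a number that 2.4% of all windows reach, and its chromosome neighbour Gabrg3 held 37. The windows of Gabrb1, Gabrb2, Gabrg1 and Gabra3 held 11, 9, 6 and 0, against a median of 7 over all windows. GCGCATGCGC was picked because both beta subunit windows hold it, and a match of letters is only a description of these windows. In the same annotation Gabra2 and Gabrg1 are direct neighbours on chromosome 14, which also carries Gabrb1; Gabra5 and Gabrg3 are direct neighbours on chromosome 1.

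The comparison of SNL with Sham asks what differed after ligation. Gabra5 rose, Gabra3, Gabrb2 and Gabrg1 fell, and Gabra2 did not pass the test. Gabrb1 was higher in every ligated library than in Sham. Of all tested genes 48.2% were called in this comparison, 24.8% as higher and 23.4% as lower, so that 4 of 5 (Gabrb1 left out) stands against a high background. The groups did not overlap for the same 4 of 5, against 43.3% of all tested genes. The median log2 fold change of the 5 was -0.85, and that of all tested genes -0.0033. In bulk ganglia, fewer cells of a type and less RNA per cell cannot be told apart.

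The libraries with UNC0638 were compared with SNL alone, the comparison nearest to the series' title, which concerns G9a and silencing after injury. Gabra5 was lower and Gabrb2 higher with UNC0638, and Gabra2, Gabra3, Gabrb1 and Gabrg1 were not called. Called in this comparison were 27.8% of all tested genes, 13.5% as higher and 14.3% as lower, against 2 of 5. The groups did not overlap for Gabra5 and Gabrb2, against 37.6% of all tested genes. Against Sham, the libraries with UNC0638 had Gabra3 and Gabrg1 lower, 2 of 5, and Gabrb1 higher. Of all tested genes 51.5% were called there, 25.5% higher and 26% lower, and 48.4% did not overlap between the groups. The 3 comparisons share libraries, so that a low SNL value enters both of the first ones with opposite sign.

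**Figure D1:**
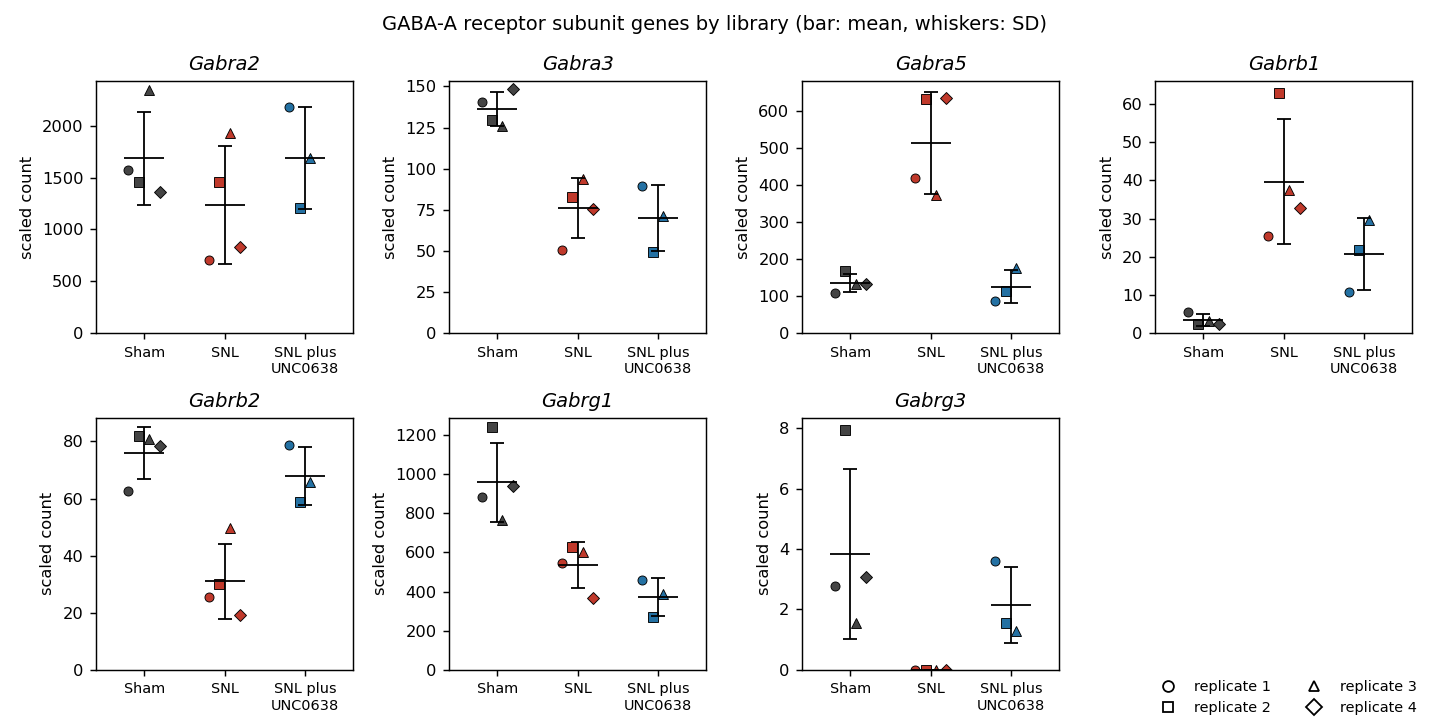
Scaled counts (vertical axes, starting at 0) of the 7 subunit genes in each of the 11 libraries, by group; symbols give the replicate number, bars the group mean and whiskers the SD. Gabra5 stands at 374 to 635 in SNL and at or below 175 elsewhere, and Gabrg3 is listed at 0 in the 4 SNL libraries.

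**Figure D2:**
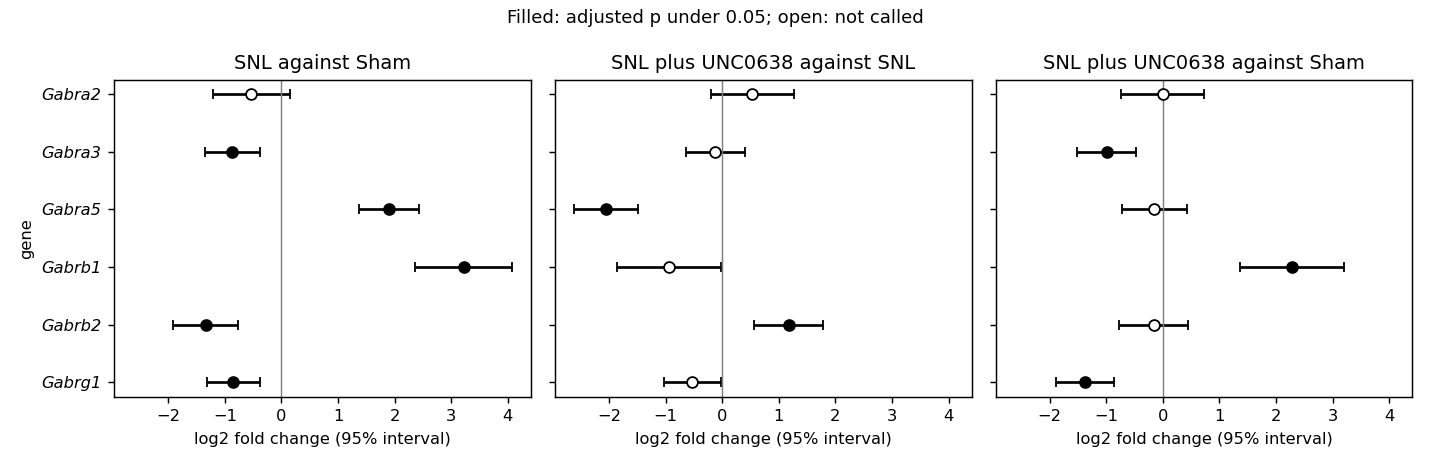
Log2 fold changes with 95% intervals (horizontal axes) of the 6 tested subunit genes (vertical axis) in the 3 comparisons; filled points passed the adjusted threshold of 0.05 and open points did not. Gabra5 moves by 1.90 with ligation and by -2.05 with UNC0638, and its interval against Sham in the third panel holds 0. Gabrb1 entered the test only through ligated libraries.

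Among the alpha subunit genes, Gabra5 showed the largest changes. In Sham replicates 1 to 4 its scaled counts were 107, 168, 132 and 134, in SNL replicates 1 to 4 they were 420.4, 633, 374 and 635, and in SNL plus UNC0638 replicates 1 to 3 they were 87.9, 113 and 175. Every SNL library was above every library of both other groups, and the Sham range overlapped that with UNC0638. Mean levels were 135 ± 25.1 (SD, n = 4), 515 ± 138 (n = 4) and 125 ± 45.1 (n = 3).

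Gabra5 rose 3.81-fold with ligation (log2 fold change 1.90, SE 0.24, limma adjusted p = 0.000162). It was 4.11-fold lower with UNC0638 than in SNL alone (log2 fold change -2.05, SE 0.26, limma adjusted p = 0.000642), and without SNL plus UNC0638 replicate 1 by -1.82 (limma adjusted p = 0.00257). Replicate 1 had the lowest value of its group, and the 2 other libraries were also below all SNL libraries. Against Sham the difference with UNC0638 was -0.15 (SE 0.26, limma adjusted p = 0.649), with a 95% interval of -0.72 to 0.42, and without replicate 1 it was 0.07. A missed threshold does not show equal levels. In order of level, SNL came first, and Sham and SNL plus UNC0638 did not differ beyond their spread.

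Gabra3, an alpha subunit gene known from monoaminergic neurons of the brain, was lower in both ligated groups. Its scaled counts were 141, 129.5, 126 and 148 in Sham, 50.8, 82.7, 93.9 and 75.7 in SNL, and 89.7, 49.5 and 70.9 with UNC0638. All 7 ligated libraries were below all Sham libraries, and the ligated groups overlapped widely. Means were 136 ± 10.2 (n = 4), 75.8 ± 18.3 (n = 4) and 70.0 ± 20.1 (n = 3).

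Gabra3 fell 1.80-fold with ligation (log2 fold change -0.87, SE 0.22, limma adjusted p = 0.00713). SNL plus UNC0638 was 1.94-fold below Sham (log2 fold change -0.99, SE 0.24, limma adjusted p = 0.00516). Between the ligated groups the difference was -0.12, with a 95% interval of -0.64 to 0.40 (limma adjusted p = 0.729); it stood at 0.11 without SNL plus UNC0638 replicate 2. Sham thus had the highest level, and SNL and SNL plus UNC0638 did not differ beyond their spread.

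Gabra2 encodes an alpha subunit found at many inhibitory synapses of the central nervous system. Its scaled counts were 1578, 1459, 2348 and 1361 in Sham, 709, 1461, 1931 and 830.0 in SNL, and 2181, 1202 and 1691 with UNC0638. All 3 groups overlapped, and the highest library of each was Sham replicate 3, SNL replicate 3 and SNL plus UNC0638 replicate 1. Mean levels were 1686 ± 450.0 (n = 4), 1233 ± 570.5 (n = 4) and 1691 ± 489.6 (n = 3).

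The fold changes of Gabra2 did not pass the test. With ligation the log2 fold change was -0.54 (95% interval -1.22 to 0.14, limma adjusted p = 0.174), with UNC0638 against SNL it was 0.53 (-0.20 to 1.27, limma adjusted p = 0.245) and against Sham -0.0035 (-0.74 to 0.73, limma adjusted p = 0.994). These intervals allow changes of more than 1.5-fold. SNL replicate 3 decided the first of these: without it the log2 fold change was -0.79 (limma adjusted p = 0.0355). Without Sham replicate 3, SNL replicate 3 and SNL plus UNC0638 replicate 1 together, a choice made after seeing the data, it was -0.62 (limma adjusted p = 0.0402). No neighbours in the order of group levels of Gabra2 differed beyond their spread.

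The beta subunit genes moved in opposite directions. Gabrb1, which is low in the uninjured ganglion, had scaled counts of 5.56, 2.27, 3.12 and 2.31 in Sham, 25.4, 63.0, 37.5 and 32.8 in SNL, and 10.8, 21.7 and 29.7 with UNC0638. The Sham values rest on an estimated 2 to 4 reads per library, those in SNL on 27 to 147 and those with UNC0638 on 12 to 23. All 7 ligated libraries were above all Sham libraries. Means were 3.31 ± 1.55 (n = 4), 39.7 ± 16.3 (n = 4) and 20.7 ± 9.49 (n = 3).

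Gabrb1 rose 12.0-fold with ligation by the ratio of means (log2 fold change 3.22, SE 0.39, limma adjusted p = 0.000159 without the filter). SNL plus UNC0638 was 6.24-fold above Sham (log2 fold change 2.28, SE 0.42, limma adjusted p = 0.00134 without the filter). The added 1 makes these log2 values smaller than the ratio of means would give. With UNC0638 the gene was not called against SNL (log2 fold change -0.94, 95% interval -1.85 to -0.02, limma adjusted p = 0.124 without the filter), and without SNL plus UNC0638 replicate 1, its lowest library, the difference was -0.55. The order of levels was SNL, SNL plus UNC0638 and Sham, and the first 2 overlapped.

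Gabrb2, a beta subunit gene common in receptors of the brain, fell with ligation and was higher with UNC0638. Its scaled counts were 62.6, 81.8, 81.0 and 78.4 in Sham, 25.4, 30.0, 49.6 and 19.2 in SNL, and 78.9, 58.8 and 65.8 with UNC0638. All SNL libraries were below all others, and the remaining groups overlapped. Means were 76.0 ± 9.02 (n = 4), 31.0 ± 13.1 (n = 4) and 67.8 ± 10.2 (n = 3).

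Gabrb2 fell 2.45-fold with ligation (log2 fold change -1.34, SE 0.26, limma adjusted p = 0.0015). With UNC0638 it was 2.19-fold above SNL (log2 fold change 1.18, SE 0.28, limma adjusted p = 0.011), and without SNL plus UNC0638 replicate 1, its highest library, 1.06 (limma adjusted p = 0.0402). Against Sham the difference with UNC0638 was -0.16, with a 95% interval of -0.78 to 0.45 (limma adjusted p = 0.646). Sham and SNL plus UNC0638 did not differ beyond their spread, and SNL was lowest.

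Of the gamma subunit genes, Gabrg1 fell in both ligated groups. Its scaled counts were 882, 1241, 768 and 942 in Sham, 546, 626, 604 and 365 in SNL, and 460.1, 269 and 387 with UNC0638. All Sham libraries were above all ligated ones, and 2 of the 3 libraries with UNC0638 lay within the SNL range, the other being lower. Means were 958 ± 202 (n = 4), 535 ± 119 (n = 4) and 372 ± 96.3 (n = 3).

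Gabrg1 fell 1.79-fold with ligation (log2 fold change -0.85, SE 0.21, limma adjusted p = 0.00702) and stood 2.58-fold below Sham with UNC0638 (log2 fold change -1.37, SE 0.23, limma adjusted p = 0.00072). The difference between the ligated groups was -0.53 (95% interval -1.03 to -0.02, limma adjusted p = 0.106) and missed the threshold. It was -0.70 without SNL replicate 4, the lowest SNL library, and passed there (limma adjusted p = 0.0399). Sham was highest, and SNL plus UNC0638 lay below SNL by a difference that was not called, though its unadjusted interval left out 0.

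Gabrg3 was near the limit of detection. It was at 2.78, 7.95, 1.56 and 3.07 in Sham, listed at 0 in all 4 SNL libraries, and at 3.59, 1.55 and 1.29 with UNC0638. These values rest on an estimated 14 reads in all of Sham, 0 in SNL and 6 with UNC0638. A count of 0 allows up to 3 reads in a library, or 1.29 to 2.82 scaled counts in the SNL libraries, a level that covers several of the other values; these limits cover counting error only. In a fit without the filter Gabrg3 was called lower with ligation (limma adjusted p = 0.00108) and higher with UNC0638 than in SNL (limma adjusted p = 0.0169). Of the 6 reads with UNC0638, 4 were in replicate 1 and 1 each in replicates 2 and 3. Both calls rest on few reads, and the fit without the filter was not run without replicate 1.

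Within the group given UNC0638, replicate 1 was the highest library for Gabra2, Gabra3, Gabrb2, Gabrg1 and Gabrg3 and the lowest for Gabra5 and Gabrb1. It was also the library with the lowest summed nerve injury genes and the highest summed skeletal muscle genes of the group. The part of the latter in the values was not tested. Without it Gabra3, Gabra5, Gabrb2 and Gabrg1 passed the test with ligation, Gabra5 and Gabrb2 with UNC0638 against SNL, and Gabra3 and Gabrg1 against Sham, as with it. Against Sham the log2 fold changes without it were -1.18 for Gabra3, -1.54 for Gabrg1, 2.67 for Gabrb1, -0.28 for Gabrb2 and -0.21 for Gabra2. Against SNL they were 0.33 for Gabra2, -0.31 for Gabra3 and -0.70 for Gabrg1, none of which passed.

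Ratios of subunit genes within a library were taken for 5 pairs, on values with 1 added. With this constant the scaling of a library does not cancel fully, least for low genes such as Gabrb1 in Sham. The log2 ratio of Gabra2 to Gabra5 was 3.61 ± 0.47 (SD) in Sham, 1.18 ± 0.86 in SNL and 3.76 ± 0.75 with UNC0638. The SNL libraries did not overlap either other group. The ratio of Gabra3 to Gabra5 went from 0.02 ± 0.32 in Sham to -2.75 ± 0.51 in SNL and stood at -0.81 ± 0.73 with UNC0638. Gabra2 to Gabra3 stood at 3.59 ± 0.43, 3.92 ± 0.40 and 4.57 ± 0.02, the last spread being small in 3 libraries whose Gabra2 values ran from 1202 to 2181.

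The log2 ratio of Gabrb1 to Gabrb2 was -4.21 ± 0.64 in Sham, 0.35 ± 0.66 in SNL and -1.76 ± 0.88 with UNC0638, and the 3 groups did not overlap. Levels of different genes are not set against each other by these ratios, since the values are not per length; only their shift between groups is read. In two-sided exact permutation tests of 10 ratio comparisons (those with a subunit gene under 10 throughout a group were left out), 2 had a raw p under 0.05, the ligation shifts of Gabra2 to Gabra5 and of Gabra3 to Gabra5 (exact p = 0.0286 each). This is the smallest p that 4 against 4 libraries allow, and 4 against 3 cannot go below 0.0571. Adjusted over the 10 none could pass, whatever the values, because too few were 4 against 4 (smallest adjusted p = 0.0816). With SNL plus UNC0638 replicate 1 left out, the shifts with UNC0638 against SNL were 2.15 for Gabra2 to Gabra5, 1.51 for Gabra3 to Gabra5, 0.64 for Gabra2 to Gabra3 and -1.61 for Gabrb1 to Gabrb2.

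**Figure D3:**
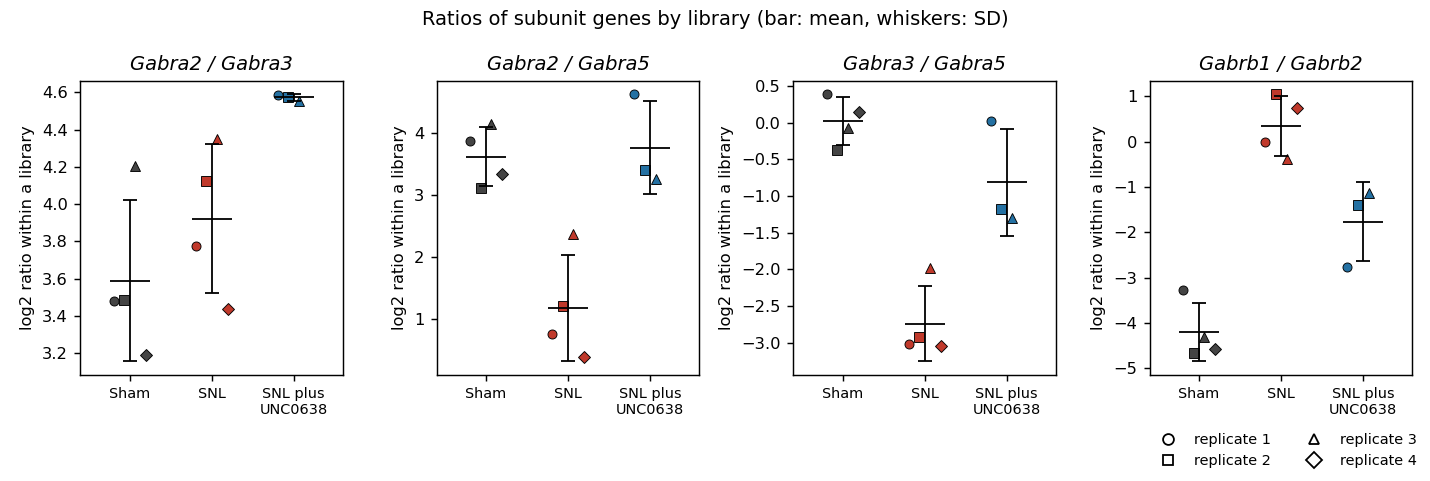
Log2 ratios of 2 subunit genes within each library (vertical axes, which do not start at 0) by group; symbols give the replicate number, bars the mean and whiskers the SD. The ratio of Gabrb1 to Gabrb2 runs from -4.21 in Sham to 0.35 in SNL, and that of Gabra2 to Gabra3 is nearly equal in the 3 libraries with UNC0638.

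For each tested subunit gene the 3 genes with the most similar profile over the 11 libraries were found by Pearson correlation of log2 levels, among genes with a mean of at least 50. These values are descriptions, since all libraries share the 3 group levels. Gabra5 was most like Ccdc172 (r = 0.98), the sepiapterin reductase gene Spr (0.98) and the peroxiredoxin gene Prdx6 (0.97). Spr, for instance, ran from 365 to 424 in Sham, from 764 to 1016 in SNL and from 303 to 385 with UNC0638. Gabrb2 was most like the potassium channel gene Kcnh7, Thsd7b and the contactin gene Cntn4 (0.97 each). Kcnh7 stood at 1466 to 2051 in Sham, 100.6 to 577 in SNL and 814 (replicate 2), 771 (replicate 3) and 1666 (replicate 1) with UNC0638.

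The other profiles were matched as closely. Gabra2 was most like Larp4b (0.98), Ap1g1, a subunit of an adaptor complex for vesicle coats (0.98), and the sorting nexin gene Snx27 (0.97). Gabra3 was most like Scoc (0.97), Siae (0.97) and the adenosine receptor gene Adora1 (0.96). Gabrb1 was most like Rdh16 (0.98), Cdhr5 and Epn2 (0.97 each), and Gabrg1 like the kinase gene Mapk9, the anoctamin gene Ano4 and Hs3st5 (0.98 each).

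Genes that act with the receptor were read from lists. Beside each count stands the share of all tested genes called in that comparison, 48.2% with ligation and 27.8% with UNC0638 against SNL. Without SNL plus UNC0638 replicate 1, calls with UNC0638 against SNL fell over all genes too, from 3355 of 12081 to 2476 of 11991 (1163 higher and 1313 lower). Genes under 10 scaled counts throughout a group are left out of the list counts, though not out of the shares of all genes. Of 12 further GABA-A and GABA-rho subunit genes 4 could be counted in this way. With ligation 0 rose and 2 fell (23.4% of all genes fell), and with UNC0638 against SNL 2 were higher (13.5% of all genes) and 0 lower, or 1 and 0 without SNL plus UNC0638 replicate 1. Their median log2 fold changes were -1.56 and 0.59, against -0.0033 and 0.0067 over all genes tested. The sum over the 12 genes was 2552 to 2846 scaled counts in Sham, 561 to 1183 in SNL and 1002 to 1999 with UNC0638, without overlap between Sham and either ligated group.

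Of 18 genes of receptor clustering and trafficking, 2 rose and 8 fell with ligation (median log2 fold change -0.39), which is 10 of 18 called against 48.2% of all genes. Gphn encodes gephyrin, the scaffold of inhibitory synapses, and went from 462 ± 27.5 to 307 ± 34.3 (log2 fold change -0.59, limma adjusted p = 0.00152). Gabarapl2, Gabarapl1 and Ubqln1 also fell (log2 fold change -0.78, -0.70 and -0.53); the first 2 belong to a family of ubiquitin-like proteins with roles in vesicle traffic and autophagy. With UNC0638 against SNL 1 of the 18 was higher and 3 lower (median 0.21), against 27.8% of all genes called, and without SNL plus UNC0638 replicate 1 these counts were 0 and 3. The lower ones were Gabarap (1139 ± 92.8 against 1869 ± 197, log2 fold change -0.71, limma adjusted p = 0.00409), Gabarapl1 (-0.73) and the membrane linker gene Rdx (-0.67), and the higher one Plcl2 (0.36). Without SNL plus UNC0638 replicate 1 Gabarap stood at -0.74 and Gabarapl1 at -0.85, both still called. The Rdx call was lost without SNL replicate 1 or SNL plus UNC0638 replicates 1 or 2 (limma adjusted p 0.055 to 0.0653) and with a replicate block (limma adjusted p = 0.0515). The Plcl2 call was lost without any 1 of the 7 ligated libraries or Sham replicate 4 (limma adjusted p 0.0514 to 0.119), with a replicate block (limma adjusted p = 0.0836), with TMM scaling (limma adjusted p = 0.0551) and without Sham replicate 3, SNL replicate 3 and SNL plus UNC0638 replicate 1 together (limma adjusted p = 0.0845).

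Of 7 tested genes that make, break down or carry GABA, 1 rose and 1 fell with ligation (48.2% of all genes were called), and 0 were called with UNC0638 against SNL by limma, 3 of the 7 having an unadjusted p under 0.05. Without SNL plus UNC0638 replicate 1, 1 of the 7 was called higher and 1 lower. The transporter gene Slc6a11, which takes up GABA into glia, rose from 22.3 ± 8.40 to 70.9 ± 25.3 (log2 fold change 1.63, limma adjusted p = 0.00112), and Aldh5a1, of the breakdown path, fell from 562 ± 50.0 to 411 ± 31.5 (-0.45, limma adjusted p = 0.011). The defining genes of GABA-releasing spinal neurons, Gad2 and Slc32a1, were between 0 and 4.48 scaled counts in all libraries.

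The metabotropic GABA-B receptor acts through G proteins. Of 6 listed genes of this receptor and its auxiliary subunits, only 4 were in the deposited table. Of 4 tested genes of this receptor and its partners 2 fell with ligation, where 48.2% of all genes were called, and 3 were higher with UNC0638 than in SNL, where 27.8% were called. Without SNL plus UNC0638 replicate 1 only Kctd8 of these 3 was called (0.81, limma adjusted p = 0.0148). Kctd8, an auxiliary subunit gene, went from 1045 ± 148 to 258 ± 42.6 with ligation (log2 fold change -2.01, limma adjusted p = 0.000101) and stood at 536 ± 155 with UNC0638 (1.02 against SNL, limma adjusted p = 0.00399). The receptor subunit gene Gabbr2 fell too (-1.47, limma adjusted p = 0.00196) and was 1.00 higher with UNC0638 (limma adjusted p = 0.0373). Kctd16, also an auxiliary gene, was 0.78 higher with UNC0638 (limma adjusted p = 0.0291). The last 2 calls were lost without SNL plus UNC0638 replicate 1 (limma adjusted p = 0.14 and 0.0934). The Gabbr2 call was also lost without Sham replicates 1 or 4, SNL replicates 1, 2 or 4, or SNL plus UNC0638 replicate 2, the Kctd16 call without SNL replicates 1 or 4 or SNL plus UNC0638 replicates 2 or 3, and both with a replicate block (limma adjusted p 0.0931 and 0.0713). With only the groups compared in the fit, the Gabbr2 call was lost too (limma adjusted p = 0.0668). The glycine receptor gene Glrb, whose product anchors the receptor to gephyrin, fell with ligation from 2006 ± 155 to 646 ± 239 (-1.70, limma adjusted p = 0.000335). With UNC0638 against SNL it was not called (0.58, limma adjusted p = 0.13), and without SNL plus UNC0638 replicate 1 the difference was 0.29. Only Glrb of the 5 listed glycine receptor genes was tested, the others being too low.

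Neurosteroids made in glia and neurons increase the opening of GABA-A receptors. Of 4 genes of their synthesis that could be counted, 3 rose and 1 fell with ligation (median log2 fold change 1.04), where 48.2% of all genes were called. Tspo, which encodes a protein of the outer mitochondrial membrane also abundant in macrophages, rose from 139 ± 15.7 to 1019 ± 164 (2.86, limma adjusted p = 0.000106) and was lower with UNC0638 (442 ± 224; -1.36 against SNL, limma adjusted p = 0.012). Replicate 1 with UNC0638 had 184 scaled counts of Tspo and the other 2 had 569 and 573, and without replicate 1 the difference was -0.82 (limma adjusted p = 0.00942). Akr1c14 also rose (1.60, limma adjusted p = 0.00292). Star and Hsd3b1 passed the filter only through ligated libraries and are given as values: Star was at 2.78 to 6.23 in Sham and 13.7 to 26.6 in SNL, and Hsd3b1 was listed at 0 in all Sham libraries and at 5.82 to 19.0 in SNL. With UNC0638 against SNL, Srd5a1 was 0.71 lower on the log2 scale and Srd5a2, also a 5-alpha-reductase gene, 3.54 higher (limma adjusted p = 0.00517 and 0.0162). The latter call was lost without SNL plus UNC0638 replicate 2 (limma adjusted p = 0.0514). Without replicate 1 these differences were -0.69 and 3.45.

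**Figure D4:**
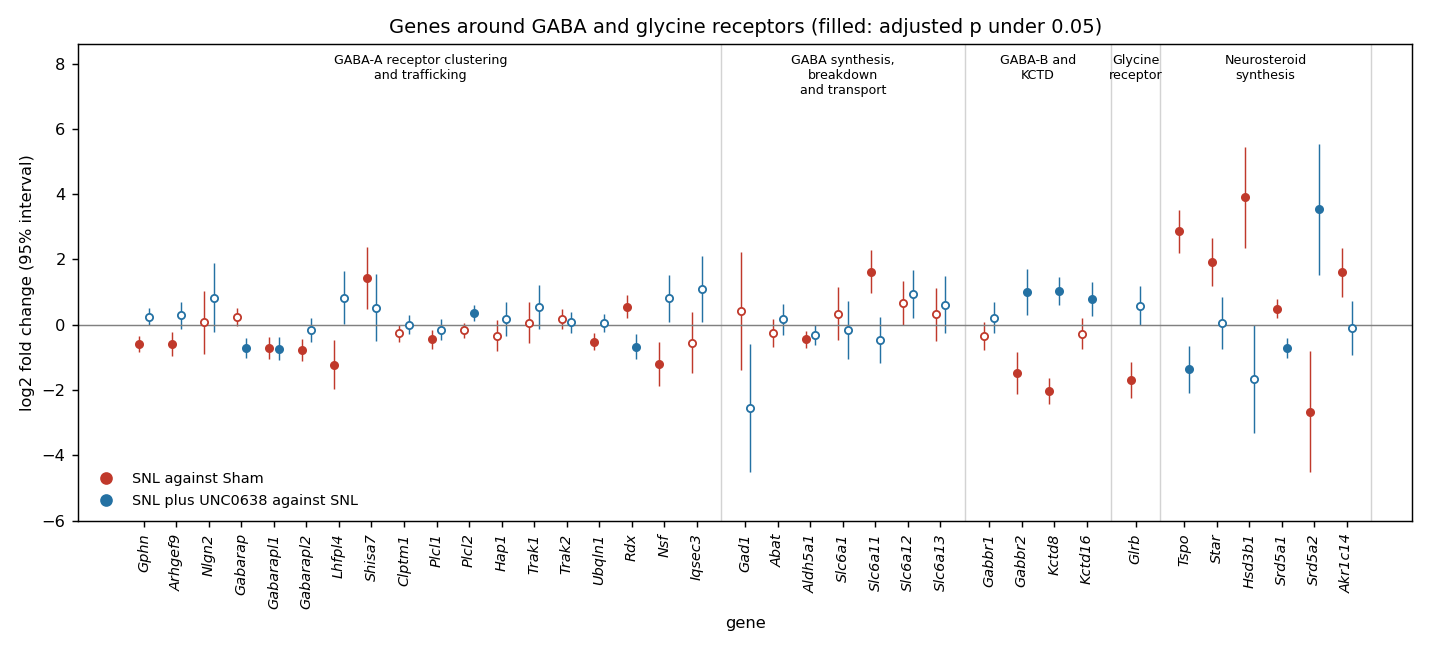
Log2 fold changes with 95% intervals (vertical axis) of tested genes around GABA and glycine receptors (horizontal axis, grouped by list), for SNL against Sham in red and SNL plus UNC0638 against SNL in blue; filled points passed the adjusted threshold of 0.05. Kctd8 lies at -2.01 with ligation and 1.02 with UNC0638, and Tspo at 2.86 and -1.36. Star and Hsd3b1 entered the test only through ligated libraries.

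Genes that mark cell types and injury were read in the same comparisons. With ligation, where 24.8% of all genes rose and 23.4% fell, 8 of 8 nerve injury genes rose (a further 2 passed the filter only through ligated libraries). In the same comparison 11 of 11 tested nociceptor genes and 6 of 9 large-diameter neuron genes fell, and of 12 pan-neuronal genes 3 rose and 7 fell. With UNC0638 against SNL, where 13.5% of all genes were higher and 14.3% lower, the 8 injury genes were lower, 6 of 11 nociceptor genes and 3 of 9 large-diameter neuron genes were higher, and of 12 pan-neuronal genes 1 was higher and 6 lower. Without SNL plus UNC0638 replicate 1 the same counts were 8 injury genes lower, 5 nociceptor and 0 large-diameter neuron genes higher, and 0 pan-neuronal genes higher and 6 lower. In that fit 1163 of all 11991 tested genes were higher and 1313 lower, against 1630 and 1725 of 12081 with all libraries. The summed pan-neuronal level was 166274 to 191701 in Sham, 176574 to 221062 in SNL and 98283 to 112698 with UNC0638. It follows its most abundant genes, Tubb3 first (means 55672, 78534 and 33360 in this order). Tubb3, Stmn2 and Gap43 were the 3 that rose with ligation. Among the 7 that fell, Rbfox3 had means of 339, 99.7 and 129, and Snap25 of 15646, 4772 and 6692. The sum is therefore not a measure of the number of neurons. Of 8 macrophage genes 7 rose with ligation, and their sum went from 1012 to 2174 in Sham to 3947 to 5929 in SNL and 3520 to 6156 with UNC0638. Of 7 tested satellite glia genes 2 rose and 3 fell with ligation, with sums of 56768 to 72845 in Sham, 54736 to 58071 in SNL and 52756 to 58990 with UNC0638. Of 8 Schwann and myelin genes 3 rose and 0 fell with ligation, and of 4 genes of central glia and spinal neurons 1 rose (Gfap) and 0 fell. Of 7 tested skeletal muscle genes only Pvalb was called lower with ligation (log2 fold change -4.89, limma adjusted p = 0.00111), the gene that also stands in the list of large-diameter neurons, and 0 of the other 6 were called by limma, 0 of them at an unadjusted p under 0.05. With SNL plus UNC0638 replicate 1 left out of the fit, 1 of the 7 was called higher and 1 lower with ligation, where 5869 of all 11991 tested genes were called. The part of these shifts in the subunit results was not tested.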

How the data were processed

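Per the labels' protocols, total RNA of dorsal root ganglia was extracted with Trizol or RNeasy (the sources used here do not assign samples to either), depleted of ribosomal RNA and made into stranded libraries. Per the series' design text and the submitters' processing notes, single-end reads of 50 bases were aligned to rn4 with TopHat2 2.0.9, and Cuffdiff 2.1.1 is named. Not given in the sources used here: annotation, use of strand and treatment of shared reads. The deposited table holds a signal, read counts per gene that the authors had divided by 1 factor per library: 98.7% to 99.5% of low values were whole multiples of 1 step (within 0.01 steps), which was taken as 1 read to estimate depth. Since not all values were whole multiples, no test that requires whole counts was run. Limma-voom on rounded estimated reads was run as an alternative.

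Of 16811 rows, 4 with a repeated name were left out, as were Sdc2 and Pcdhgc5, at 0 throughout 1 group and high elsewhere, a choice made after their values were seen. Then limma 3.58.1 (R 4.3.3, statmod 1.5.0; eBayes with trend and robust) was run on log2(value + 1), all 11 libraries entering 1 fit with group means. Tests were two-sided. The script was tested on simulated data. Alternatives were other scalings, pseudocounts and filters, limma-voom, other fits and single libraries left out; leaving out or modelling Sham replicate 3, SNL replicate 3 and SNL plus UNC0638 replicate 1 together was added after seeing the data.

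Subunit genes, lists and tests were chosen with earlier results of these data known. Named are all subunit genes; per list up to 4 called genes with the smallest p in each of the first 2 comparisons, though lists of cell types and of further subunits are given by counts, and their genes are not reported here by name except where a value is needed; and per tested subunit gene the 3 most similar genes. Same-numbered libraries of different groups had correlations of deviations from -0.446 to 0.431, so numbers were not taken to pair samples. Replicates differed by 5.88 to 78.4 times counting noise per gene.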

Additional observations from a re-analysis of the deposited data

How the results depend on the processing

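The 8 calls of single subunit genes other than Gabrb1 kept their direction and passed the threshold in all 23 alternative settings each, with adjusted p of at most 0.0402. Gabra5 ranged from 1.79 to 2.15 (log2) with ligation and from -2.32 to -1.82 with UNC0638 against SNL. Some differences not called in the reported fit passed elsewhere. Gabra2 with ligation passed without SNL replicate 3 (limma adjusted p = 0.0355). It also passed with Sham replicate 3, SNL replicate 3 and SNL plus UNC0638 replicate 1 left out or modelled together (limma adjusted p = 0.0402 and 0.0414). Gabrg1 with UNC0638 against SNL passed without SNL replicate 4 (limma adjusted p = 0.0399). Gabrg3 could be called only in the fit without the filter. No ratio passed in any of 13 settings, an outcome that the numbers of libraries fixed in advance. Some differences that were not called changed sign. Against Sham, limma-voom on estimated reads gave 0.21 for Gabra2, 0.25 for Gabra5 and 0.030 for Gabrb2 with UNC0638, where the median of all genes was 0.19 against -0.01 in the reported fit, and leaving out Sham replicate 3, SNL replicate 3 and SNL plus UNC0638 replicate 1 gave 0.070 for Gabra5. With single libraries left out, the difference with UNC0638 against Sham ran from -0.21 to 0.22 for Gabra2, from -0.42 to 0.074 for Gabra5 and from -0.28 to 0.40 for the ratio of Gabra2 to Gabra5, and that against SNL from -0.31 to 0.11 for Gabra3. Limma-voom scaled each library to its own read total in place of the authors' factor. Under that factor the totals were 10801730 to 11345375 scaled counts in Sham, 9983953 to 10630584 in SNL and 9448055 to 10025358 with UNC0638. The part of this change of scaling in the limma-voom results was not tested, nor was the cause of the other changes of sign. With limma-voom the calls of all genes with UNC0638 against SNL split into 3310 higher and 1528 lower, against 1630 and 1725, and against Sham into 4827 and 2859, against 3082 and 3136. The number of all genes called with UNC0638 against SNL was 3355. It fell to 2126 under a replicate block, to 2076 without SNL replicate 1 and to 2031 without SNL plus UNC0638 replicate 2, lay between 2031 and 4466 over all single libraries left out, and was 5219 without those 3 libraries. The block changed no call of a subunit gene (Gabrb2 with UNC0638: log2 fold change 1.09, adjusted p = 0.0365). Of samples with the same number, not all correlated best with each other. A test that requires whole counts was not run, because not all values are whole multiples of a step. Limma-voom used estimated reads rounded to whole numbers. Depth limits Gabrg3 and the Sham level of Gabrb1.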

Other observations

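Gad1, which encodes a GABA-synthesising enzyme, was low and uneven: 24.6 to 62.3 scaled counts in Sham, 31.0 to 59.3 in SNL, and 29.6, 0 and 15.5 in SNL plus UNC0638 replicates 1, 2 and 3. It was not called with UNC0638 against SNL (log2 fold change -2.55, limma adjusted p = 0.0528). Srd5a2 was at 7.79 in Sham replicate 3 and at 140 to 185 in the other Sham libraries, at 4.70 to 22.3 in SNL and at 124 to 162 with UNC0638, so that 1 Sham library lay within the SNL range.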
